A study of Homo sapiens with 14 samples.

Results

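The rhomboid superfamily was followed through selective ribosome profiling of 3 subunits of the ER membrane protein complex (EMC). The set was given by name and holds 10 of the 19440 gene symbols in the count tables. It comprises the pseudoprotease TMEM115, the RHBDD genes RHBDD1, RHBDD2 and RHBDD3, the protease genes RHBDL1, RHBDL2 and RHBDL3, the iRhom genes RHBDF1 and RHBDF2, and PARL, the mitochondrial member, taken as a control outside the ER. The set was defined on the comparison of IP with input in each line, so those ratios are given as a description, with no p-value. All 10 symbols had a value in each library, and 8 passed the filter on low counts. RHBDL1 and RHBDL2 did not.

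Ribosome footprints were sequenced from derivatives of Flp-In T-REx 293, a human embryonic kidney cell line. The EMC6 line lacks its own EMC6 and carries a doxycycline-inducible 3Flag-EMC6. The EMC7 and EMC10 lines carry inducible 3Flag-EMC7 and 3Flag-EMC10, and their labels name no knockout. All cultures, also those behind the inputs, received 0.5 to 1.0 ng/mL doxycycline for 72 h. The IP libraries hold what Flag beads took from solubilized microsomes, and the input libraries hold the solubilized microsomes themselves. There were 2, 2 and 3 IP libraries and as many inputs for the EMC6, EMC7 and EMC10 lines. The labels do not say whether a line is 1 clone or whether replicates are separate cultures, so a p-value here covers the spread among the libraries in hand, part or all of which may be technical. No IP from cells without a tagged bait was analysed here. Footprints brought down by the bait and footprints bound to the beads in other ways therefore cannot be told apart, and neither can the bait and its cell line.

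Rhomboids are polytopic membrane proteins built on a shared bundle of transmembrane helices. The active members are serine proteases that cut other proteins within or next to the membrane. The pseudoproteases have kept the fold and lost the catalytic residues, and act on the trafficking or turnover of their clients. The EMC is an insertase of the ER that places certain transmembrane helices into the membrane while or after a protein is made. EMC6 belongs to its membrane core, whereas EMC7 and EMC10 carry large luminal domains.

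Counts on genes ranged from 515302 to 2248591 in the IP libraries and from 1692490 to 3395114 in the inputs, with the lowest of each in the EMC6 line. Messages of the 3 bait genes took 0.537% and 0.587% of the gene counts in the EMC6 IPs, 14.4% and 15.0% in the EMC7 IPs and 24.8% to 26.3% in the EMC10 IPs. Counts that no gene received made up 9.28% to 12.5% of an EMC6-line library and 2.76% to 5.15% of the rest. KRT8, KRT18, CDH2, VIM and LIN28B were present in each input, while PAX2 had 1 to 9 counts and NEFM 0 or 1. Markers of hepatocytes (ALB), leukocytes (PTPRC), beta cells (INS) and endothelium (CDH5) had 0 counts in the inputs, CD3E had 0 or 1 and HBB 0 to 3, whereas the epithelial marker EPCAM had 570 to 2248.

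TMEM115 encodes a Golgi membrane protein with a rhomboid-like fold and no protease activity, studied for its part in retrograde Golgi transport. The gene lies on chromosome 3 at 50354750 to 50359521 (GRCh38). Its level is given in CPM, a count of footprints scaled to library size with TMM factors. TMEM115 had 2210 and 2193 CPM in the EMC6 IPs, against 74.9 and 95.1 CPM in the EMC6 inputs. In the EMC7 line it had 2229 and 1796 CPM in IP, against 154.3 and 123.9 CPM in input. In the EMC10 line the IPs held 2431, 2404 and 2431 CPM, against 128.9, 136.5 and 138.5 CPM in the inputs. No IP library overlapped an input, the lowest IP and the highest input both being from the EMC7 line. The log2 ratio of IP to input was 4.69 ± 0.19 (SE) with EMC6, 3.85 ± 0.18 with EMC7 and 4.17 ± 0.15 with EMC10, or 25.9-fold, 14.4-fold and 18.0-fold. Counted from the top of the 9458 genes tested, these ratios ranked 11, 21 and 8. The median log2 ratio of all genes was -0.12, -0.14 and -0.17 in the same lines.

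**Figure D1:**
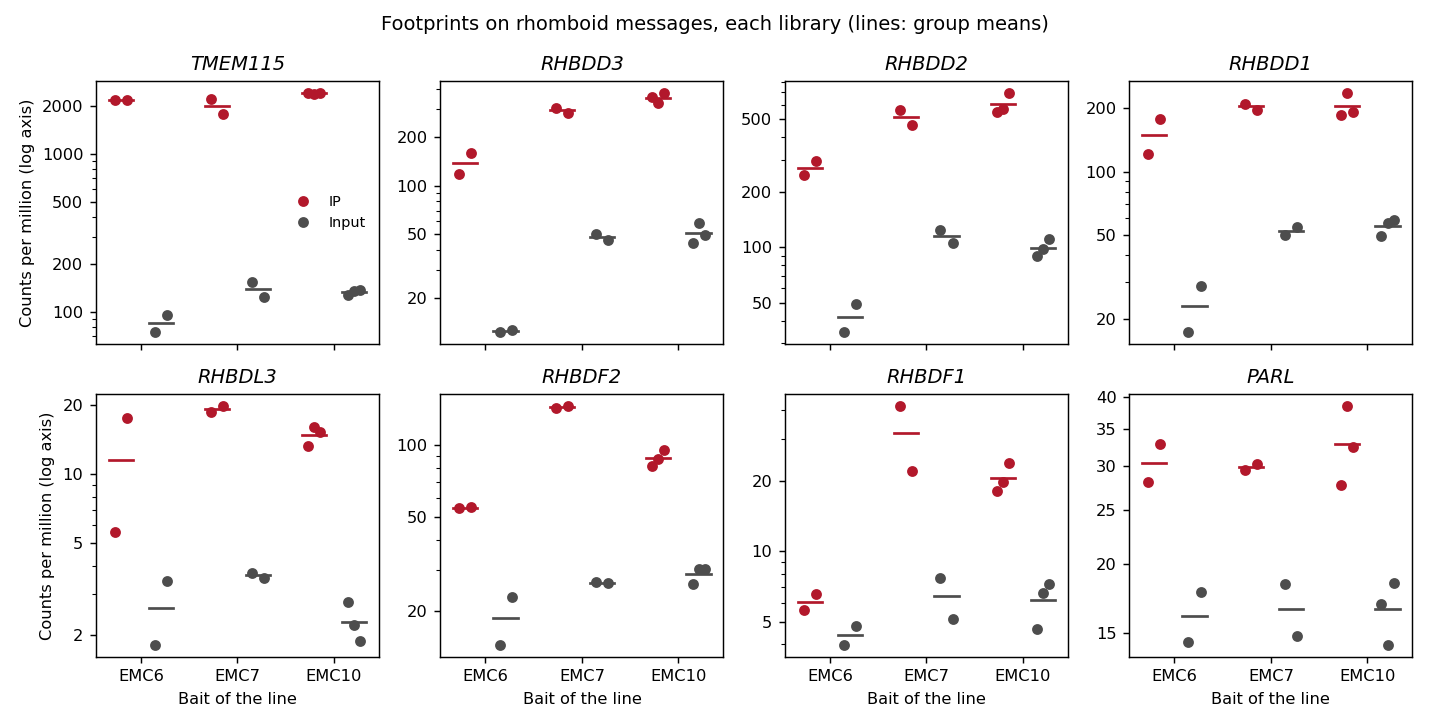
Footprint level of the 8 members that passed the filter, in CPM after TMM scaling on log axes of differing range, for each bait line. Points are single libraries, with IP (red) left of input (grey), and short lines are group means. Each member has its IP points above its input points in each line, with TMEM115 between 1796 and 2431 in IP and between 74.9 and 154.3 in input. The share of all genes that separate in this way was not counted.

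The RHBDD genes are taken next. RHBDD3 (chromosome 22, 29259852 to 29268163) encodes a predicted pseudoprotease with a ubiquitin-associated domain. It had 118 and 160 CPM in the EMC6 IPs against 12.3 and 12.7 CPM in the EMC6 inputs. In the EMC7 line it had 307 and 283 CPM in IP against 50.0 and 45.7 CPM in input. The EMC10 IPs held 355, 326 and 378 CPM against 44.1, 58.7 and 49.6 CPM in the inputs. Its IP values stood apart from input in all 3 lines, and both fractions were lowest in the EMC6 line. On the log2 scale the ratios of IP to input were 3.49 ± 0.24, 2.62 ± 0.19 and 2.80 ± 0.15 (SE) with EMC6, EMC7 and EMC10.

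RHBDD2 (chromosome 7, 75879034 to 75888926) encodes a Golgi rhomboid-like protein without a complete catalytic site. It had 249 and 296 CPM in the EMC6 IPs against 34.7 and 48.9 CPM in input. In the EMC7 line the IPs held 564 and 463 CPM against 124 and 106 CPM in input, and in the EMC10 line 544, 571 and 695 CPM against 90.2, 98.5 and 111 CPM. Again no IP overlapped its inputs, and the EMC6 line was lowest in both fractions. Fitted log2 ratios were 2.71 ± 0.21, 2.16 ± 0.19 and 2.60 ± 0.16 with EMC6, EMC7 and EMC10.

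RHBDD1 (chromosome 2, 226800159 to 226999210) encodes RHBDL4, an active ER rhomboid that binds ubiquitin and delivers cut membrane proteins to ER-associated degradation. Its span overlaps that of COL4A4, which held 7051 counts over all libraries, and whether shared reads were split is not given in the sources used here. RHBDD1 had 122 and 179 CPM in the EMC6 IPs against 17.4 and 28.7 CPM in input. The EMC7 IPs held 211 and 197 CPM against 50.3 and 54.4 CPM, and the EMC10 IPs 187, 237 and 192 CPM against 49.6, 56.9 and 59.2 CPM. The fractions did not overlap in any line. The log2 ratios were 2.72 ± 0.24 with EMC6, 1.97 ± 0.20 with EMC7 and 1.90 ± 0.17 with EMC10.

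Of the RHBDL genes, only RHBDL3 (chromosome 17, 32265832 to 32324661) was measurable. It encodes a predicted active rhomboid of the secretory pathway whose substrates are little known. The EMC6 IPs held 5.61 and 17.5 CPM, from 3 and 16 counts, against 1.81 and 3.42 CPM in input. The EMC7 IPs held 18.7 and 19.9 CPM against 3.72 and 3.54 CPM. In the EMC10 line the values were 13.3, 16.1 and 15.3 CPM in IP against 2.78, 2.198 and 1.88 CPM in input. IP lay above input throughout, and the EMC6 IPs were the most spread. The log2 ratios were 2.27 ± 0.53, 2.38 ± 0.39 and 2.68 ± 0.37 with EMC6, EMC7 and EMC10, and the EMC6 value was 1.07 without IP replicate 2.

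RHBDL1 (chromosome 16, 675671 to 678268) had 1 count in EMC7 input replicate 1, 1 count in EMC10 input replicate 2 and 0 in the other libraries. RHBDL2 (chromosome 1, 38885807 to 38941830), the plasma membrane protease known to cut ephrin-B3 and thrombomodulin, had 0 counts in all 14. A count of 0 allows up to 3 counts, which is 0.884 to 5.82 CPM without TMM scaling, depending on the library, and covers counting error only. RHBDL2 was at or under that limit at this depth, as was RHBDL1 in the libraries where it had 0 counts. The limit does not cover the libraries where RHBDL1 had 1 count. No ratio is given for either gene.

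The iRhoms are pseudoproteases of the ER that escort the sheddase ADAM17 to the cell surface. RHBDF2 (chromosome 17, 76470893 to 76501427), encoding iRhom2, had 54.2 and 54.8 CPM in the EMC6 IPs against 14.5 and 22.9 CPM in input. The EMC7 IPs held 143 and 146 CPM against 26.5 and 26.4 CPM, and the EMC10 IPs 81.9, 87.8 and 95.5 CPM against 26.0, 30.1 and 30.3 CPM. The 3 sets of IP values did not overlap one another, with EMC7 highest and EMC6 lowest. How many of all genes had such separate IP sets was not counted. The log2 ratios were 1.54 ± 0.26 with EMC6, 2.45 ± 0.20 with EMC7 and 1.62 ± 0.17 with EMC10.

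RHBDF1 (chromosome 16, 58059 to 76360), encoding iRhom1, had 5.61 and 6.57 CPM in the EMC6 IPs, from 3 and 6 counts, against 3.98 and 4.79 CPM in the inputs, from 11 and 14 counts. The EMC7 IPs held 41.7 and 21.9 CPM against 7.68 and 5.15 CPM, and the EMC10 IPs 18.1, 19.7 and 23.9 CPM against 4.64, 6.60 and 7.23 CPM. IP lay above input in each line, by a margin that was small in the EMC6 line. Its log2 ratios were 0.49 ± 0.61 with EMC6, 2.32 ± 0.32 with EMC7 and 1.75 ± 0.30 with EMC10. The EMC6 value turned to -0.22 with library size alone, and the EMC7 value was 1.72 without EMC7 IP replicate 1.

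PARL (chromosome 3, 183826489 to 183884880) encodes the rhomboid protease of the mitochondrial inner membrane, which is imported from the cytosol and cuts PINK1 and PGAM5. Its IP levels were 28.0 and 32.9 CPM with EMC6, 29.5 and 30.3 CPM with EMC7 and 27.7, 38.5 and 32.5 CPM with EMC10. The inputs held 14.5 and 17.8 CPM in the EMC6 line, 18.4 and 14.8 CPM in the EMC7 line and 16.9, 14.3 and 18.5 CPM in the EMC10 line. IP was above input without overlap in each line, and the IP levels of the 3 lines overlapped. The log2 ratios were 0.94 ± 0.30, 0.83 ± 0.26 and 1.01 ± 0.21 with EMC6, EMC7 and EMC10. Relative to the median of all genes, the ratio of PARL stayed between 0.81 and 1.27 over the lines and the settings tried. Scaled by library size alone, it turned to -0.19 with EMC7 and -0.11 with EMC10, as the median of all genes moved to -1.15 and -1.28.

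**Figure D2:**
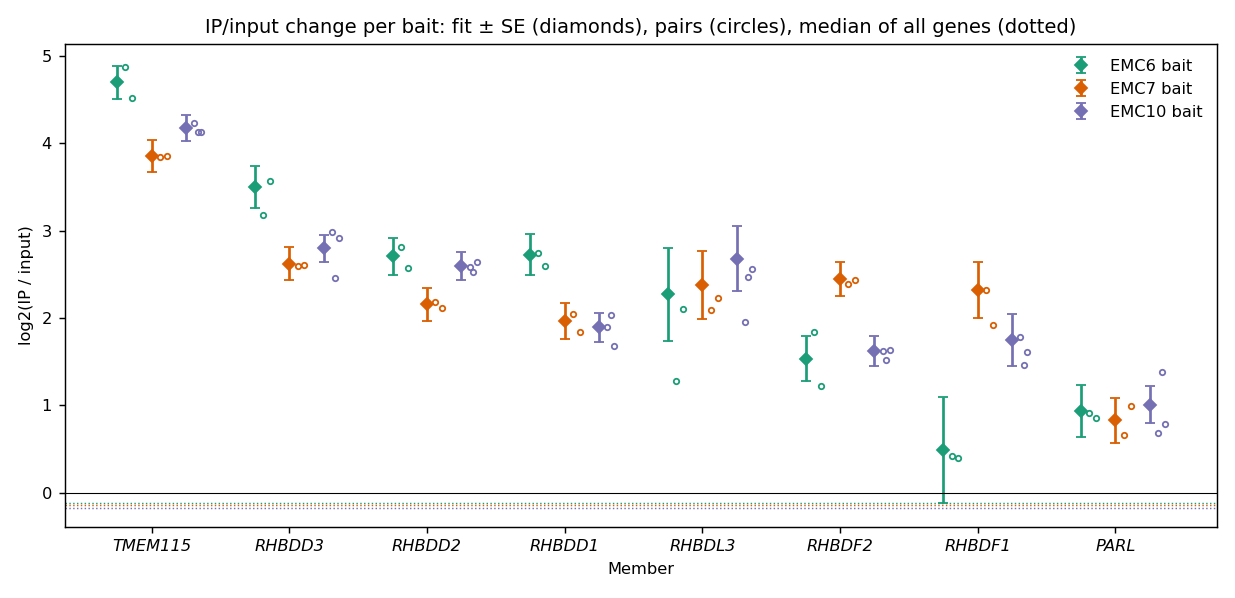
Log2 ratio of IP to input for the 8 members with each bait. Diamonds with bars are fitted ratios ± SE, circles the single pairs of IP and input, and dotted lines the median of all genes. TMEM115 lies between 3.85 and 4.69, PARL between 0.83 and 1.01, and RHBDF1 with EMC6 at 0.49.

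At an adjusted p of 0.05 in edgeR's quasi-likelihood test, 7 of the 8 members were higher in IP in the EMC6 line, where 17.6% of all genes were, RHBDF1 being the one below the threshold. All 8 were higher in the EMC7 line (20.4% of all genes) and in the EMC10 line (19.9%). These are the contrasts that the set was defined on, and the counts add nothing to the values above.

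The members were ranked by their mean log2 ratio over the 7 pairs of IP and input. The differences and counts below come from the same pairs, so they describe this ranking and do not test it. Pairs of all bait lines were pooled, so the SD also holds differences between lines. TMEM115 exceeded RHBDD3 by 1.32 ± 0.27 log2 units (SD, n = 7 pairs), in 7 of 7 pairs, by 0.94 to 1.70. RHBDD3 exceeded RHBDD2 by 0.41 ± 0.32 and RHBDD2 exceeded RHBDD1 by 0.37 ± 0.36, each in 6 of 7 pairs. RHBDD1, RHBDL3 and RHBDF2 kept no steady order. RHBDD1 was above RHBDL3 in 2 of 7 pairs and RHBDL3 above RHBDF2 in 4 of 7. RHBDF2 was above RHBDF1 in 6 of 7 pairs by 0.39 ± 0.57. RHBDF1 was above PARL in 5 of 7 pairs, and below it in both pairs of the EMC6 line.

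Whether a member's enrichment depended on the bait was tested as the difference between the log2 ratios of 2 lines, a contrast that did not define the set. None of the 8 members passed in edgeR at an adjusted p of 0.05, in any of the 3 differences. Of all genes, 0.518% passed for EMC6 minus EMC7, 0.074% for EMC6 minus EMC10 and 0.159% for EMC7 minus EMC10. At an unadjusted p under 0.05 the members numbered 5, 3 and 1. The share of all genes at that unadjusted threshold was not counted, so nothing is read from these numbers. DESeq2 called 1, 0 and 0, where it gave an adjusted p for 4, 1 and 5 of the members and called 5.72%, 2.54% and 1.68% of the genes with one. The member it called was TMEM115.

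TMEM115 came closest. Its pair ratios were 4.87 and 4.51 with EMC6, 4.23, 4.13 and 4.13 with EMC10, and 3.85 and 3.85 with EMC7, and these sets did not overlap. How many of all genes had pair ratios without overlap was not counted. The difference of EMC6 minus EMC7 was 0.84 ± 0.23 (SE, adjusted p = 0.0951 in edgeR). The same difference was 0.98 without EMC6 IP replicate 1, 1.16 without EMC6 input replicate 2 and lowest, at 0.67, without EMC7 input replicate 1. The median difference of all genes was 0.10, 0.18 and 0.008 in these fits, against 0.015 with all libraries. Each of these fits leaves 1 library in a group, and no p-value is given for them. Its IP levels overlapped between EMC6 and EMC7, while the EMC6 inputs lay below the EMC7 inputs.

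Both iRhoms had their highest fitted ratio with EMC7, but for RHBDF1 EMC7 minus EMC10 turned to -0.02 without EMC7 IP replicate 1. For RHBDF2 the difference was -0.91 ± 0.32 between EMC6 and EMC7 (adjusted p = 0.227) and 0.83 ± 0.26 between EMC7 and EMC10 (adjusted p = 0.265, both edgeR). Without EMC6 input replicate 1, EMC6 minus EMC7 was -1.19 for RHBDF2, and without EMC6 input replicate 2 it was -0.40. The median of all genes was 0.02 and 0.18 in these fits. For RHBDF1, on 9 IP counts in the EMC6 line, the difference was -1.83 ± 0.66 between EMC6 and EMC7 (adjusted p = 0.248 in edgeR), and -1.23 without EMC7 IP replicate 1.

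RHBDD3, RHBDD1 and RHBDD2 differed by 0.87 ± 0.30, 0.76 ± 0.31 and 0.55 ± 0.28 between EMC6 and EMC7 (adjusted p = 0.23, 0.379 and 0.58 in edgeR). Without EMC6 IP replicate 1 the RHBDD3 difference was 1.19, and without EMC6 IP replicate 2 it was 0.61. The median of all genes was 0.10 and -0.005 in these fits. The RHBDD1 difference was 1.31 without EMC6 input replicate 2, 0.42 without EMC6 IP replicate 2 and 0.46 without EMC6 input replicate 1. There the medians of all genes were 0.18, -0.005 and 0.02. For PARL, EMC6 minus EMC7 was 0.10 ± 0.39, EMC6 minus EMC10 was -0.07 ± 0.36 and EMC7 minus EMC10 was -0.18 ± 0.33, which leaves room for differences of either sign.

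The labels give IP and input of a line the same replicate number, and the fit with that replicate block called more. Between EMC6 and EMC7 it called 5 members against 6.31% of all genes. TMEM115 was higher with EMC6 by 0.84 (adjusted p = 2.39e-09), RHBDD3 by 0.86 (0.00769), RHBDD1 by 0.72 (0.019) and RHBDD2 by 0.54 (0.0243), and RHBDF2 was lower at -0.94 (0.0188). Between EMC6 and EMC10 it called TMEM115 at 0.52 (0.000709) and RHBDD1 at 0.80 (0.00777), against 2.23% of all genes. Between EMC7 and EMC10 it called RHBDF2 at 0.83 (0.00384) and RHBDD2 at -0.43 (0.0168), against 4.38%. This blocked edgeR fit had 4 residual degrees of freedom and a median prior of 2649, against 27.2 without the block, so its p-values rest mainly on the spread estimated over all genes.

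With limma on the 7 pair ratios, whose prior was 2.16 degrees of freedom, 1 member was called. RHBDF1 was lower with EMC6 than with EMC7 by -1.71 ± 0.19 (adjusted p = 0.0393), against 0.592% of all genes called, and TMEM115 had an adjusted p of 0.0674. In the other differences limma called no member, against 0.127% and 0.0106% of all genes. The members called thus differed between the paired fits, while the direction of each difference named here was the same in both.

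**Figure D3:**
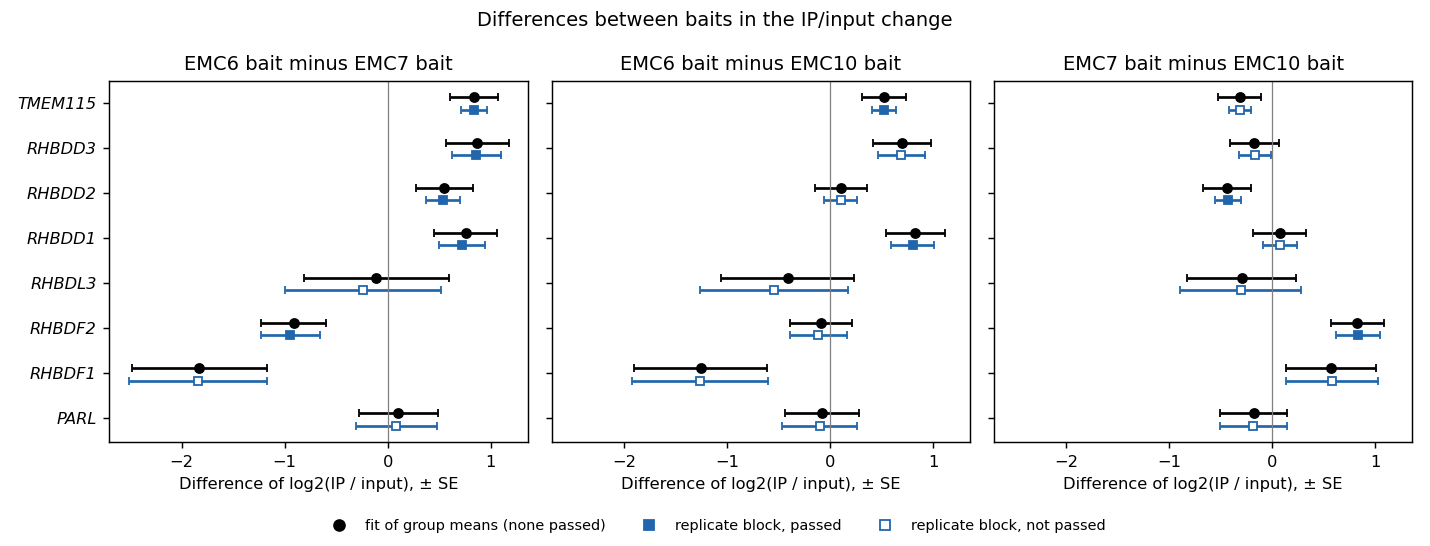
Difference between baits in the log2 ratio of IP to input, with EMC6 minus EMC7, EMC6 minus EMC10 and EMC7 minus EMC10 from left to right. Black circles are the fit of group means ± SE, where no member passed, and squares the fit with the replicate block, filled where a member passed. TMEM115 and the RHBDD genes lie right of 0 between EMC6 and EMC7, and RHBDF1 and RHBDF2 left of it at -1.83 and -0.91.

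Input levels of the members also differed between the lines. When the inputs of the EMC6 line were set against the mean of the EMC7 and EMC10 inputs, 5 of the 8 members were lower and none higher in edgeR, where 21.8% of all genes were lower and 15.3% higher. RHBDD3 had the lowest value of the members at -1.98 ± 0.21 log2 units (SE, adjusted p = 3.2e-09), which ranked 72 from the bottom of 9458 genes. Its EMC6 inputs of 12.3 and 12.7 CPM lay below the 44.1 to 58.7 CPM of the other inputs without overlap. RHBDD2 fell by 1.35 ± 0.18 (adjusted p = 1.95e-07), RHBDD1 by 1.21 ± 0.20 (7.4e-06) and TMEM115 by 0.69 ± 0.15 (0.000374), all in edgeR and all without overlap. How many of all genes had inputs without overlap was not counted, so nothing is read from the separation. RHBDF2 was lower at -0.55 ± 0.19 (adjusted p = 0.0201 in edgeR) and at -0.28 (0.397) without EMC6 input replicate 1.

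RHBDF1, RHBDL3 and PARL did not pass, at -0.52 ± 0.35, -0.13 ± 0.44 and -0.04 ± 0.21. The EMC6 inputs held fewer footprints on ER messages as a class. Of 68 tested genes for ER luminal and secreted proteins, 62 were lower and 0 higher, with a median of -0.95 and a range of -1.54 to 0.21, against a median of 0.07 for all genes. RHBDD3 lay below that whole range, 1.03 under its median. RHBDD2 lay 0.41 and RHBDD1 0.26 under it, and TMEM115 and RHBDF2 lay 0.26 and 0.39 above it. When the libraries were scaled on these 68 genes, RHBDD3 (-1.02, adjusted p = 0.000129) and RHBDD2 (-0.41, adjusted p = 0.0158) were lower and PARL was called higher (0.91, adjusted p = 0.000841), in edgeR. That scaling called 3.08% of all genes lower and 70.4% higher, and PARL lay below the median of all genes, which was 1.03. The part of the lower ER share in these values was not tested, and the EMC6 knockout, the bait and the line cannot be told apart. Between the EMC7 and EMC10 inputs none of the 8 members passed in edgeR or DESeq2 or at an unadjusted p under 0.05, and 0.0211% of all genes did in edgeR.

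**Figure D4:**
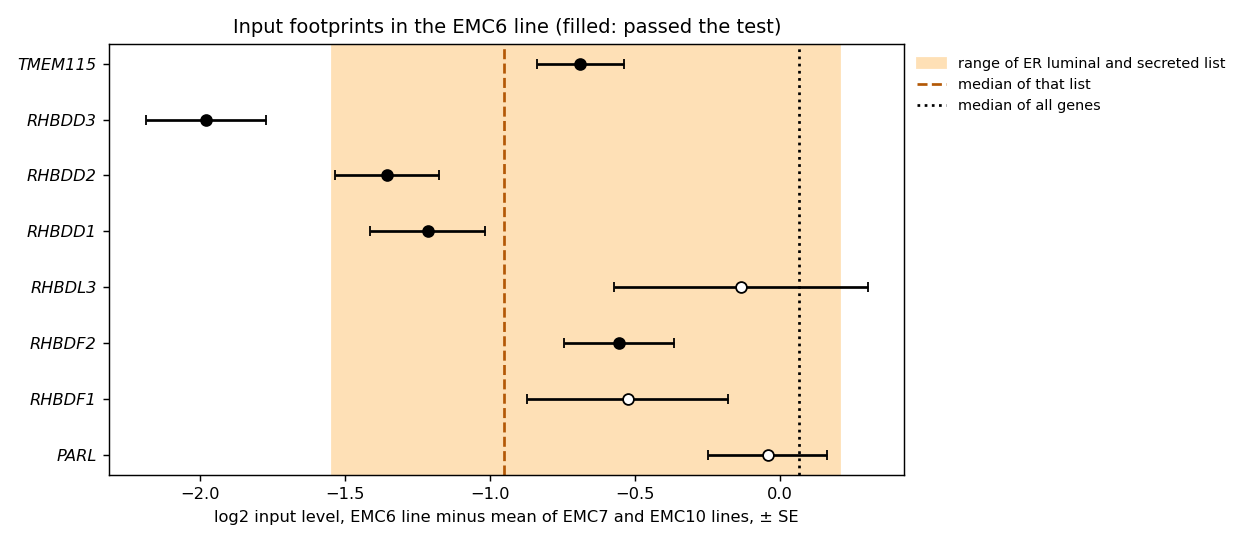
Input level of the 8 members in the EMC6 line minus the mean of the EMC7 and EMC10 lines, in log2 units ± SE, filled where the test was passed. The shaded band is the range of 68 genes for ER luminal and secreted proteins, the dashed line their median of -0.95 and the dotted line the median of all genes. RHBDD3 at -1.98 lies left of the band and PARL at -0.04 near the median of all genes.

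Lists of related genes were set beside the members on the mean of the 3 lines, where 23.7% of all genes were higher in IP and 26.9% lower. Derlins and UBAC2 are rhomboid-like pseudoproteases of the ER that work in protein disposal. All 3 that were tested rose, by 2.47 ± 0.10 for UBAC2, 2.28 ± 0.10 for DERL1 and 2.25 ± 0.11 for DERL2 (SE, adjusted p = 1.4e-21, 5.58e-21 and 1.6e-19 in edgeR). DERL3 had too few counts to test. The list of other intramembrane proteases also holds the gamma-secretase subunits NCSTN, APH1A, APH1B and PSENEN, which are not proteases themselves. All 13 genes of that list rose, with a median of 1.94. They included ZMPSTE24, a prenyl-protein protease (2.47 ± 0.09), the signal peptide peptidase-like SPPL3 (2.38 ± 0.11), presenilin 2 (PSEN2, 2.36 ± 0.11) and the site-2 protease MBTPS2 (2.06 ± 0.11). The 8 members tested had a median of 2.32 on the same scale, against -0.19 for all genes.

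Partners of the rhomboids were more mixed. Of 14 factors of ER-associated degradation, the pathway of RHBDD1, 11 rose and 2 fell, with a median of 0.93. Among those higher in IP were the membrane-bound ubiquitin ligases, with RNF139 at 3.59 ± 0.10 and SYVN1 at 2.35 ± 0.11, and the lipid-droplet factor AUP1 followed at 2.07 ± 0.10. The cytosolic VCP and its cofactor UFD1 fell by 0.65 ± 0.09 and 0.56 ± 0.15 (adjusted p = 2.35e-07 and 0.00215 in edgeR). Of 13 genes of the ADAM17 and EGF axis, on which iRhoms act, 6 could be tested and 4 rose. The receptors ERBB3, ERBB2 and EGFR rose by 1.50 ± 0.15, 1.38 ± 0.10 and 1.04 ± 0.12. ADAM17 itself rose by 0.34 ± 0.11 (adjusted p = 0.0095 in edgeR), a sign that turned with scaling by library size (-0.61) or on ER luminal genes (-0.07). With library size alone 2 of the 6 were called higher and 2 lower, where 12% of all genes were higher and 77% lower.

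Most mitochondrial and Golgi partners did not pass. Of 6 substrates of PARL none passed in edgeR, in DESeq2 or at an unadjusted p under 0.05, and their median was 0.12. PINK1, the kinase that PARL cuts, was at 0.22 ± 0.17. Of 6 other mitochondrial inner membrane proteases 2 rose, where 23.7% of all genes did, and nothing is read from that count. They were the AAA protease subunit SPG7 at 1.15 ± 0.12 and OMA1 at 0.39 ± 0.14 (adjusted p = 3.42e-10 and 0.0218 in edgeR). OMA1 turned to -0.56 with library size alone and to -0.02 with scaling on ER luminal genes. With library size alone none of the 6, SPG7 included, was called higher and 5 were called lower. The COG complex, the Golgi tether with which TMEM115 has been linked, had 2 of 8 subunits lower, near the 26.9% of all genes. They were COG6 at -0.57 ± 0.20 and COG5 at -0.45 ± 0.15 (adjusted p = 0.0166 and 0.0119 in edgeR), and DESeq2 called neither. Nothing is read from that count. Scaling by library size alone moved the median of all genes to -1.13 and lowered each list with it, so that all 6 PARL substrates and all 8 COG subunits were called lower and the degradation list had 4 higher and 6 lower, where 77% of all genes were lower and 12% higher. Relative to the median of all genes, the list medians were 2.47 for derlins and UBAC2, 2.12 for the other intramembrane proteases, 1.11 for the degradation factors, 0.30 for PARL substrates and -0.14 for COG subunits under that scaling. No list was tested against another, and the differences between lists are given by their counts and medians only.

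**Figure D5:**
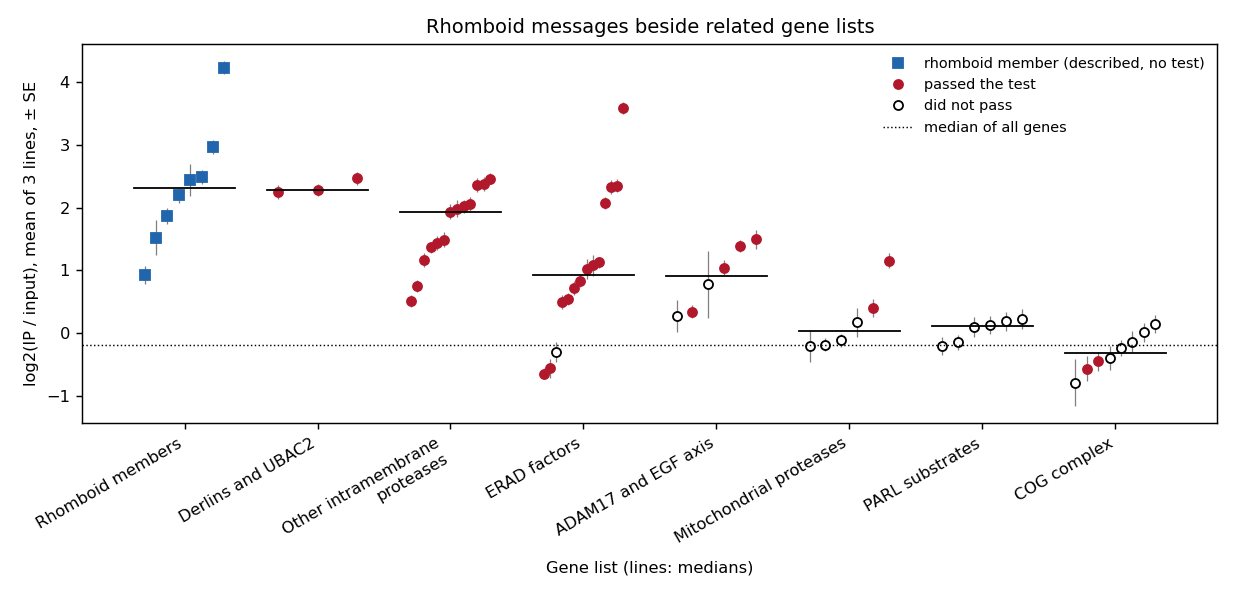
Log2 ratio of IP to input on the mean of the 3 lines, ± SE, for the 8 members (squares, no test) and the tested genes of 7 related lists. Circles are filled where the edgeR test was passed, short lines are list medians and the dotted line is the median of all genes at -0.19. Derlins and UBAC2 lie between 2.25 and 2.47, PARL substrates around 0.12 and the COG subunits around -0.32.

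Over 6333 genes with a mean of at least 10 CPM, those whose 7 pair ratios lay closest to TMEM115 were named by Euclidean distance. SLC30A5, a zinc transporter, was at 0.457 and had log2 ratios of 4.45 ± 0.20, 3.66 ± 0.19 and 4.15 ± 0.16 with EMC6, EMC7 and EMC10. PIGV, a mannosyltransferase of GPI anchor synthesis, was at 0.476, the ER membrane protein WFS1 at 0.485, the exporter ABCC4 at 0.505 and the anoctamin ANO10 at 0.589. The closeness covers ratios that share libraries and is a description, and the choice by distance fixes that the 5 follow TMEM115 over the baits.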

How the data were processed

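In 14 files, 1 per library, the authors deposited raw counts of ribosome footprints, as whole numbers by gene symbol. Per the submitters' processing notes, cutadapt 4.1, Bowtie2 2.2.6, TopHat2 2.1.0 and hg38 were used. The sources used here do not give the annotation, the strand setting or any removal of duplicates, so intervals and floors cover counting error only. From 515302 to 3395114 counts per library fell on 19440 symbols. Positions are from RefSeq on GRCh38.p14, which held 18968 of them, and 5 lines that name no gene were left out.

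All libraries entered 1 fit in edgeR 4.0.16 (with limma 3.58.1, in R 4.3.3) with 1 mean for each line and fraction. After filterByExpr, 9458 genes were scaled by TMM and tested by robust quasi-likelihood, adjusted by Benjamini-Hochberg over all genes at 0.05. Log2 ratios are fitted, and pair ratios use a prior count of 2. DESeq2 1.42.0, other scalings, no filter, fits without baits or single libraries and a replicate block were alternatives. The steps were tested on simulated data. Replicates had r of 0.922 to 0.986 across genes and differed by more than sampling noise (chi-square over its degrees of freedom 1.91 to 7.74).

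The labels give IP and input of a line the same number, and each IP was made from its input, so the numbers pair them. For IP and input of a pair, deviations from group means correlated at 0.27 (EMC6 line), 0.07 (EMC7 line) and 0.04 to 0.10 (EMC10 line). All 10 members, up to 4 genes per related list and the 5 genes closest to TMEM115 were to be named, along with VCP, UFD1 and ADAM17, chosen after their values were seen. A gene that this rule would name is not reported here. Members and lists were chosen with earlier results of these data known.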

Additional observations from a re-analysis of the deposited data

Results flagged for a closer look

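With the replicate block, 9 differences between baits in the log2 ratio of IP to input passed edgeR's test, while none passed in the fit of group means. Between EMC6 and EMC7 they were TMEM115 (0.84), RHBDD3 (0.86), RHBDD1 (0.72), RHBDD2 (0.54) and RHBDF2 (-0.94). Between EMC6 and EMC10 they were TMEM115 (0.52) and RHBDD1 (0.80). Between EMC7 and EMC10 they were RHBDF2 (0.83) and RHBDD2 (-0.43). The same fit called 6.31%, 2.23% and 4.38% of all genes in the same order. Limma on the pair ratios called RHBDF1 alone, between EMC6 and EMC7, and none of the above. The blocked fit had 4 residual degrees of freedom and a median prior of 2649, so its p-values rest mainly on the spread over all genes. The EMC6 inputs held less of TMEM115, RHBDD1, RHBDD2, RHBDD3 and RHBDF2 than the other inputs, and the part of this in the EMC6 differences was not tested. Groups of 2 or 3 libraries were too small to look for a single library standing apart.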

How the results depend on the processing

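The number of members higher in IP stayed between 5 and 8 under each alternative in each of the 3 lines. The set was defined on these contrasts, so the counts are a description and lend no support. Of 9458 genes, the fit with TMM called 1666, 1930 and 1885 higher in the EMC6, EMC7 and EMC10 lines. With library size alone these were 990, 1001 and 760. The numbers that differed between baits, 0 in the fit of group means, moved most. With the replicate block, which pairs IP and input, they were 5 for EMC6 minus EMC7, 2 for EMC6 minus EMC10 and 2 for EMC7 minus EMC10, and with limma on pair ratios, chosen after seeing the data, 1, 0 and 0. The first was 2 with library size alone, 1 with scaling on ER luminal genes and 1 with the DESeq2 Wald test. It was 1 with library size alone without the bait genes, also chosen after seeing the data. The second was 3 with library size alone. Of all genes, library size alone called 195 higher and 21 lower for the first and 493 and 1 for the second, with medians of 0.32 and 0.46. For the first, scaling on ER luminal genes called 124 and 31, and library size without the bait genes 75 and 41. Leaving out EMC6 input replicate 2 moved the median of all genes to 0.18 for the first and 0.22 for the second. These medians were 0.01 and 0.06 in the fit of group means. Members with a differing input in the EMC6 line numbered 5, and 4 with library size alone, all of them lower. Over all genes TMM called 1445 higher and 2066 lower there, and library size alone 3434 and 1452. With scaling on ER luminal genes the members numbered 3, 2 lower and 1 higher, where 6661 of all genes were higher and 291 lower. That scaling, which moved the median of all genes there to 1.03, reversed 5 of 8 members, TMEM115 (0.27), RHBDF2 (0.38), PARL (0.91), RHBDF1 (0.42) and RHBDL3 (0.79). Library size alone reversed PARL in IP against input to -0.19 with EMC7 and -0.11 with EMC10. Over all genes, on the mean of 3 lines, it called 1135 higher and 7282 lower, where TMM called 2243 higher and 2547 lower. The cause of these changes was not tested beyond the shift of the median. Over single members, 1408 values kept direction and side of the threshold, 25 came to pass, 17 no longer passed and 52 changed sign, 5 of them past the threshold in either setting. The other sign changes were as follows. Library size alone gave -0.22 for RHBDF1 in IP against input with EMC6, 0.19 for RHBDL3 in EMC6 minus EMC7, 0.32 for RHBDF2 and 0.33 for PARL in EMC6 minus EMC10, 0.17 for RHBDL3 and 0.26 for PARL in the EMC6 inputs, and -0.012 for TMEM115 and -0.042 for PARL in EMC7 minus EMC10 inputs. Without the bait genes, library size alone gave -0.21 for RHBDF1 in IP against input with EMC6, -0.031 for RHBDD1 in EMC7 minus EMC10, 0.16 for RHBDL3 and 0.26 for PARL in the EMC6 inputs, and -0.0092 for TMEM115 and -0.039 for PARL in EMC7 minus EMC10 inputs. Scaling on ER luminal genes gave 0.096 for RHBDL3 in EMC6 minus EMC7, -0.20 for RHBDD1 in EMC7 minus EMC10, and -0.078 for TMEM115, -0.031 for RHBDF1 and -0.11 for PARL in EMC7 minus EMC10 inputs. With only the libraries compared, RHBDD1 was -0.014 in EMC7 minus EMC10. Leaving out 1 library gave ranges across 0. In EMC6 minus EMC7 they were -1.31 to 0.56 for RHBDL3 and -0.075 to 0.41 for PARL. In EMC6 minus EMC10 they were -0.37 to 0.41 for RHBDF2, -1.61 to 0.25 for RHBDL3, -0.11 to 0.50 for RHBDD2 and -0.23 to 0.20 for PARL, and in EMC7 minus EMC10 -0.024 to 0.92 for RHBDF1. In the EMC6 inputs they were -0.71 to 0.22 for RHBDL3 and -0.25 to 0.080 for PARL. In EMC7 minus EMC10 inputs they were -0.12 to 0.20 for TMEM115, -0.25 to 0.33 for RHBDF1, -0.18 to 0.036 for RHBDD3 and -0.15 to 0.16 for PARL. A fit without 1 library of a pair assumes that the lone library varies like the other groups. Depth limits RHBDL1, RHBDL2, RHBDL3 and RHBDF1.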
